A study of Mus musculus with 6 samples.

Results

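The data described here are the regions of acetylated histone H3 (H3ac) at 9 mouse histone deacetylase genes, namely Hdac1, Hdac2 and Hdac3 of class I, Hdac4, Hdac5, Hdac7 and Hdac9 of class IIa, Hdac10 of class IIb and Hdac11, which is usually placed in class IV. The genes were chosen with earlier results of these data known, and regions were assigned to them by position alone. A region of the table belonged to a gene when its interval on mm10 overlapped the GENCODE gene body extended by 5 kb on both sides. This gave 26 of the 24431 regions, of which 5 belonged to class I, 19 to class IIa, 1 to class IIb and 1 to class IV. The remaining genes of classes I and II, the X-linked Hdac8 and Hdac6, were not among the members, and 0 regions of the table lay within 5 kb of either, although 408 regions lay on that chromosome.

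The H3ac maps came from mesenchymal stem cells (MSCs), multipotent stromal cells, of mice of different age. They were made by CUT&RUN, in which a nuclease tethered to an antibody cuts marked chromatin free for sequencing. Of the 6 libraries, 2 were from untreated Young MSCs (donor mice aged 3 to 5 months) and 2 from untreated Old MSCs (donor mice aged 18 to 22 months). The other 2, OldAcetate, were from MSCs of mice aged 18 to 22 months kept in 5 mM sodium acetate over 3 days. All groups shared the oxygen level of 2% and the same medium with serum and antibiotics, so the design asks how H3ac differs with age and what acetate changes in old cells. The labels do not say whether the libraries of a group came from separate animals or cultures, and p-values therefore measure only the spread between these libraries. Values are in RPM, the reads in a region scaled by the total of their library.

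Histone deacetylases remove acetyl groups from lysines of histones and other proteins, against the acetyltransferases that add them from acetyl-CoA. Class I enzymes are catalytic subunits of nuclear corepressor complexes, HDAC1 and HDAC2 in NuRD, Sin3 and CoREST and HDAC3 in the NCoR complex. Class IIa proteins have weak catalytic activity of their own, bind MEF2 transcription factors and leave the nucleus when kinases phosphorylate them, and in skeletal tissue HDAC4 is known for restraining chondrocyte hypertrophy. H3ac marks open chromatin at promoters and enhancers, and its level over a gene measures neither the RNA nor the protein of that gene.

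Regions were numbered within each gene in the direction of transcription. A promoter region lay within 1 kb of the 5′ end of the gene record, and 9892 of the 24431 regions were promoter regions of some protein-coding gene. Hdac1, Hdac2, Hdac3, Hdac5, Hdac10 and Hdac11 each had a promoter region. At the class IIa genes Hdac4, Hdac7 and Hdac9 the 5′ end of the gene record lay outside every region, but a region farther downstream covered the start of shorter protein-coding transcripts. These 3 regions are called internal start regions, a class defined after the regions were seen. The other 17 regions covered the start of no protein-coding transcript of their own gene.

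The start sites of these genes differed in sequence as well as in H3ac, and the 250 bases upstream of 6 of them are shown to set covered and uncovered starts side by side. They are RefSeq windows on GRCm38.p6, printed 5′ to 3′ on the strand of the gene with each CG in capitals. The Hdac2 window lies at chr10:36974294-36974543 on the plus strand. The others are on the minus strand, at chr1:92180342-92180591 for the internal start of Hdac4, at chr15:97844503-97844752 and chr15:97831768-97832017 for the uncovered and the covered start of Hdac7, and at chr12:34917096-34917345 and chr12:34528890-34529139 for those of Hdac9. The Hdac4 window and the covered Hdac7 and Hdac9 windows lie inside the gene record, between its annotated exons.
Hdac2 gene start, in a region: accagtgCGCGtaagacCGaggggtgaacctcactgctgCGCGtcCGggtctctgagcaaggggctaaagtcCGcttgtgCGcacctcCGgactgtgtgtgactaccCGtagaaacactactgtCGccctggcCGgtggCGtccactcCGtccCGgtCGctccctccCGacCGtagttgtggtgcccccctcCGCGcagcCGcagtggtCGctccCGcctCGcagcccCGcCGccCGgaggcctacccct
Hdac4 internal start, in a region: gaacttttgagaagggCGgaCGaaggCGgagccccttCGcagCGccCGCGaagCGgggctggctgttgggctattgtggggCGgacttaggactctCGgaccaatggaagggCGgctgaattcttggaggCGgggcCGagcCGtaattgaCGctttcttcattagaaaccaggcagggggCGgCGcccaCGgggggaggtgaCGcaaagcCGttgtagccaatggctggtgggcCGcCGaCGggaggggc
Hdac7 gene start, outside all regions: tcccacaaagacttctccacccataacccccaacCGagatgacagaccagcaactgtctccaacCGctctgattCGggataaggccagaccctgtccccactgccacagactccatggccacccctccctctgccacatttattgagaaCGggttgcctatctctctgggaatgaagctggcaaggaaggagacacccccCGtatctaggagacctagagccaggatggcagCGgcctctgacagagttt
Hdac7 internal start, in a region: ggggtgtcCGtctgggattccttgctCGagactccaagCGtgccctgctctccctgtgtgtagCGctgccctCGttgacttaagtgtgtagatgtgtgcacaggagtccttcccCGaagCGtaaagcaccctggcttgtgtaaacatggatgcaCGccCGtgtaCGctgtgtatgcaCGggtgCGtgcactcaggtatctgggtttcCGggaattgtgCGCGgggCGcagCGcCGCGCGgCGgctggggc
Hdac9 gene start, outside all regions: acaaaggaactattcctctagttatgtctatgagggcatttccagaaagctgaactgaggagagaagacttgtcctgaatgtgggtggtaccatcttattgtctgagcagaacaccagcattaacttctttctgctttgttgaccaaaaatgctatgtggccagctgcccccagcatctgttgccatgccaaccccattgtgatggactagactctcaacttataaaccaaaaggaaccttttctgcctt
Hdac9 internal start, in a region: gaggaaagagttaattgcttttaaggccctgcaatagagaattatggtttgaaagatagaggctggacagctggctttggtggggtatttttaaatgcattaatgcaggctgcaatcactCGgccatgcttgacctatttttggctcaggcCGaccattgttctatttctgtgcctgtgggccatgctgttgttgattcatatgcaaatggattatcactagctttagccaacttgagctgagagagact

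The Hdac2 window held 27 CG and the Hdac4 internal start 23, against a median of 6 over the 32851 windows of the RefSeq table. At Hdac7 the uncovered gene start held 6, and of 3 covered starts the printed one held 21 and the others 25 and 5, so covered starts of this gene lay on both sides of the uncovered one. At Hdac9 the covered start held 2 and the uncovered gene start 0, so at this gene H3ac lay over a start with few CG. Among the printed windows the letters GGGCGG, searched on both strands with overlaps counted, occurred 4 times at the Hdac4 internal start and 1 time at Hdac2, and at least once in 32.7% of all windows. The letters TATAAA, searched in the same way, occurred 1 time, at the uncovered Hdac9 start, and in 12.4% of all windows. The letters CCAAT occurred 2 times at the Hdac4 internal start and in 33.8% of all windows. Of the starts not printed, the Hdac5 window held 12 CG and the Hdac11 window 17, and RefSeq windows for Hdac1, Hdac3 and Hdac10 were not used here.

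The class IIa genes carried most of the regions, and their layout differed from gene to gene. Hdac4 spans 266921 bp on chromosome 1 and had 6 regions, all inside the gene. Its region 1, at chr1:92173001-92186000, covered the starts of 2 protein-coding transcripts, the upstream one 15358 bp from the 5′ end of the record. The start of a further protein-coding transcript, 47306 bp into the gene, lay 1393 bp outside the nearest region. Hdac9 spans 869516 bp on chromosome 12 and had 8 regions, yet 3.12% of its extended span lay in them, the lowest share of the 9 genes. Its region 1, at chr12:34527001-34530500, began 386595 bp into the gene and covered 6 coding starts, whereas the region nearest to the 5′ end of the record was 79906 bp away.

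Hdac5 and Hdac7 had the opposite layout, with long regions over short genes. Hdac5 region 1, at chr11:102207001-102231500, was 24500 bp long, covered the gene start and lay for 94.6% of its length in the gene. Hdac7 region 2, at chr15:97811001-97841500, was 30500 bp long and covered 4 coding starts, and its edge lay 3002 bp from the uncovered gene start. Hdac7 region 3, at chr15:97762001-97793000, was 31000 bp long, but only 337 bp of it lay in Hdac7 and the rest ran over the starts of Rapgef3 and Slc48a1. Of the 26 regions, 4 were 20 kb or longer, or 15.4% against 6.99% of all regions. Assignment by overlap takes up long regions more readily than short ones, so these shares are not like for like. Of the 6 promoter regions 1 was that long, beside 8.60% of all promoter regions.

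**Figure D1:**
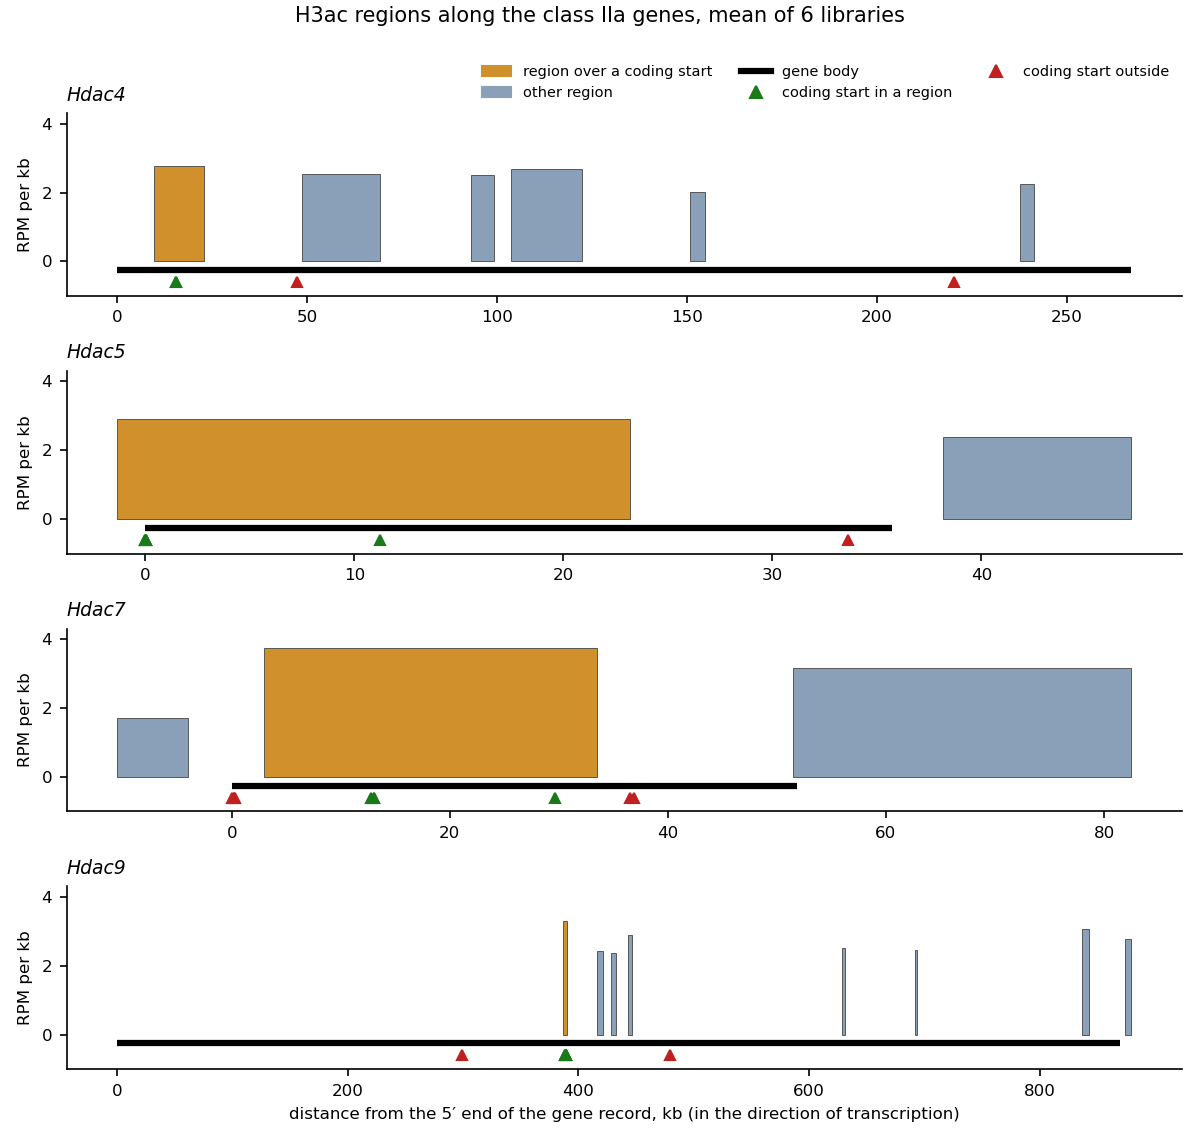
H3ac regions along Hdac4, Hdac5, Hdac7 and Hdac9, with the distance from the 5′ end of the gene record in kb on the x axis and the mean level of 6 libraries in RPM per kb on the y axis. Bars are regions at their true width (orange, over a coding start; blue, other), the black line is the gene body, and triangles are starts of protein-coding transcripts inside (green) or outside (red) a region; the starts at 0 of Hdac7 are red, and those of Hdac9 begin 298602 bp into the gene.

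The class I genes and Hdac10 and Hdac11 had 1 or 2 regions each. Hdac1 region 1 (chr4:129541001-129544000) and Hdac2 region 1 (chr10:36973501-36976500) were short, at 3000 bp each, and overlapped no other protein-coding gene. Hdac3 region 1 (chr18:37948001-37957500) also covered the start of Rell2, and Hdac10 region 1 (chr15:89121001-89130500) enclosed the whole of Hdac10 and the start of Tubgcp6, so their reads cannot be assigned to a single gene. The second regions of these genes belonged mainly to neighbours. Hdac1 region 2 lay over the start of Marcksl1, Hdac3 region 2 over that of Diaph1, and Hdac5 region 2 over those of G6pc3 and Lsm12. Hdac11 region 1 (chr6:91152001-91161000) overlapped no other protein-coding gene, and extending the genes by 10 kb instead of 5 kb added 1 region, at Hdac11.

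Each region name holds a code of the letters Y, O and AC, taken here to stand for the 3 groups in that order. All 9 regions over a start carried all 3, beside 91.5% of all promoter regions. So did 24 of the 26 regions, or 92.3% against 80.6% of all regions. The exceptions lay in introns or exons deep in Hdac4, with region 5 coded AC and Y and region 6 coded O and Y. A code for Young alone, held by 4.66% of all regions, occurred at 0 of the 26. A further 12.1% of all regions were coded AC and Y, and 2.53% O and Y. Nearly every region of the table thus carried Y, while many lacked O or AC.

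Library totals ran from 2163351 to 3039481 reads. Of these, 57.8% and 64.8% lay in the regions for Young libraries, 45.9% and 49.9% for Old libraries, and 56.3% and 57.3% for OldAcetate libraries. These shares were counted over regions that nearly all carried Y in their code, a choice of regions that can favour Young. All 10 stromal marker genes, among them Pdgfra, Ly6a and Thy1, had a region at their start, against 2 of 8 haematopoietic genes (Cd68 and Spi1, while those without one included Ptprc, Itgam, Adgre1, Csf1r and Cd3e) and 0 of 5 endothelial genes. Over their start regions the stromal genes summed to 722 to 832 RPM in Young, 583 to 619 in Old and 753 to 754 in OldAcetate, and the 2 haematopoietic genes to 51.5 to 56.3, 44.8 to 45.3 and 47.0 to 55.5. The part of these shifts in the results was not tested. In cells measured in bulk, fewer cells with the mark and less mark per cell cannot be told apart.

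Levels of different genes were compared per kb of region. Over the start regions the mean level of 6 libraries was highest at Hdac2, with 6.15 RPM per kb, followed by Hdac7 with 3.75, Hdac9 with 3.31, Hdac3 with 3.14, Hdac5 with 2.92, Hdac1 with 2.89, Hdac4 with 2.76, Hdac10 with 2.58 and Hdac11 with 2.08. Hdac2 stood apart from its neighbour in this order, since its lowest library, at 4.93 RPM per kb, was above the highest library of Hdac7, at 4.42. Every other pair of neighbours overlapped between libraries. Among all promoter regions Hdac2 lay at percentile 99.9 and Hdac11 at percentile 3.27. As a set the members were ordinary in level, with a median of 2.72 RPM per kb against 2.70 over all regions, and with 2.91 over the 6 promoter regions against 3.07 over all promoter regions. Mean counts per region and library ran from 12.8 reads, where counting error alone was 27.9% of the value, to 299.5 reads, where it was 5.78%.

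**Figure D2:**
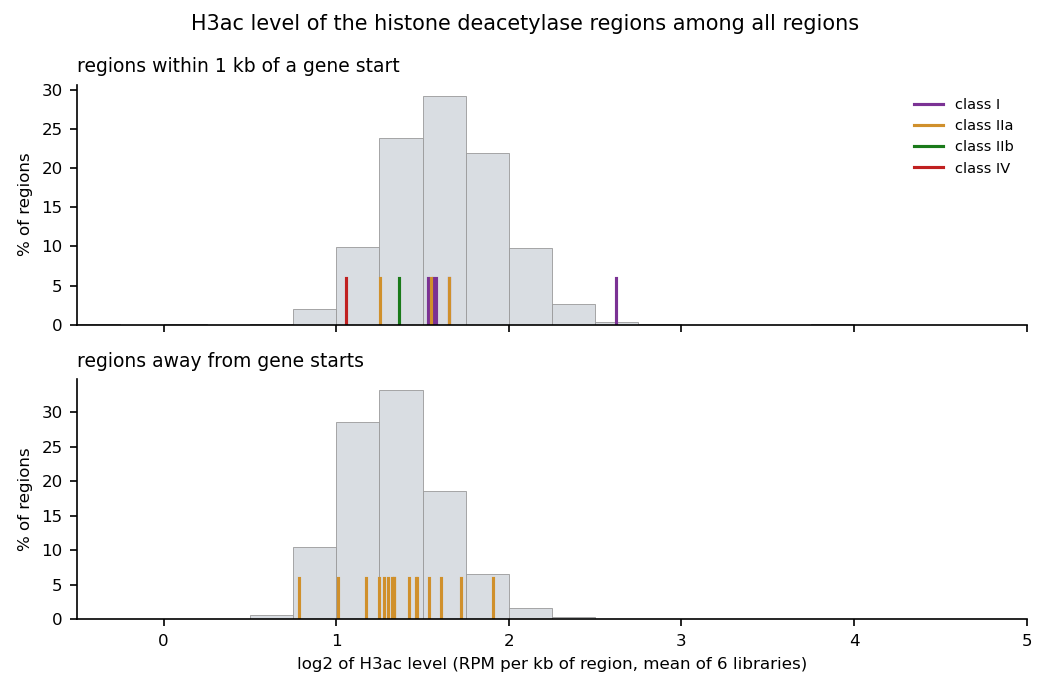
Share of regions in percent (y axis) by log2 of the mean H3ac level in RPM per kb (x axis), for regions within 1 kb of a gene start (upper panel) and regions away from gene starts (lower panel). Grey bars are all regions and coloured lines are the histone deacetylase regions by class; Hdac2, at 6.15 RPM per kb, is the line at the right of the upper panel and Hdac11, at 2.08, the line at its left.

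The base composition of whole regions differed in the same way as that of the start windows. The Hdac2 promoter region held 48.7 CG per kb, against a median of 23.6 over all promoter regions. The 8 Hdac9 regions had a GC content of 35.6% to 43.1%, below the median of 46.2% over all regions, and held 5.20 to 10.6 CG per kb. The level of Hdac9 region 1 was 3.31 RPM per kb, beside a median of 3.07 over all promoter regions. It lay at percentile 79.0 of all regions and 90.2 of the regions away from gene starts. The latter set leaves out only regions near the 5′ end of a gene record, so it can hold internal starts such as this one.

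**Figure D3:**
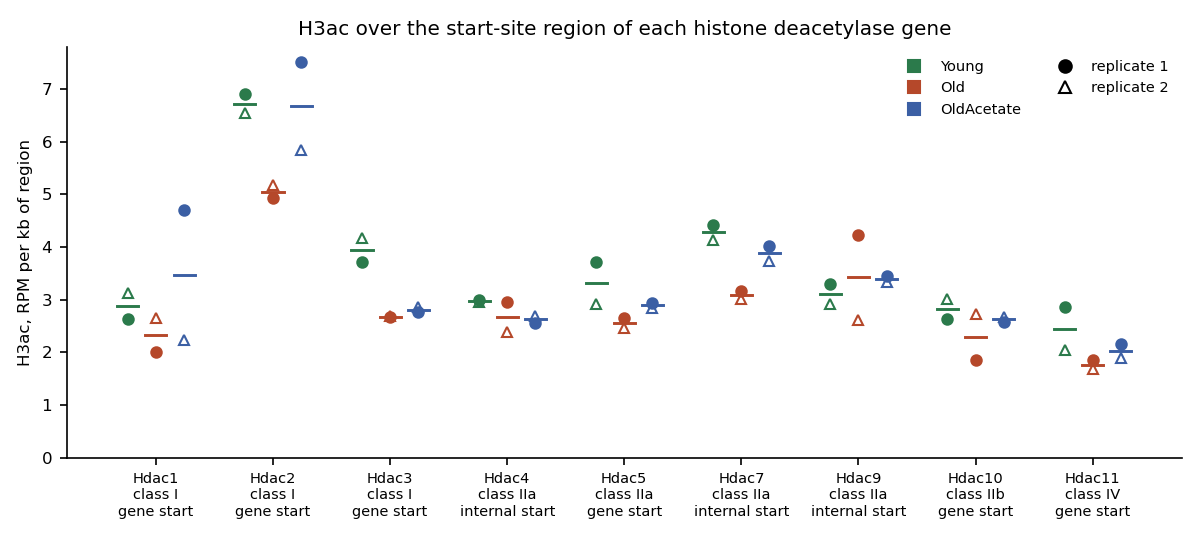
H3ac level in RPM per kb of region (y axis) over the start region of each of the 9 genes (x axis), with a point for each library (circle, replicate 1; triangle, replicate 2) and a line at each group mean. Hdac2 lies above the other genes in all 6 libraries, and both Old libraries lie below both Young libraries at Hdac2, Hdac3, Hdac5, Hdac7 and Hdac11, and, by a margin too small to see, at Hdac4.

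The question of age was addressed by comparing Old with Young. Relative to the other regions of the table, H3ac at the histone deacetylase genes did not pass the test at any region. For this comparison each library was scaled by subtracting its median deviation from the region means, because RPM in Old was lower over most of the table, with a median change of -0.35 on the log2 scale over all 24431 regions. After scaling, limma called 0 of the 26 regions at an adjusted p under 0.05, where 0.00819% of all regions were called. At an unadjusted p under 0.05 the counts were 0 of 26 and 5.54% of all regions, and the edgeR test on recovered reads also called 0. The scaled log2 fold changes of the 26 regions ran from -0.22 to 0.46, with a median of -0.033 over the 6 promoter regions and -0.0045 over all regions. Leaving out Old replicate 2 moved the promoter median to -0.17, and leaving out Old replicate 1 moved it to 0.020.

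With the values as given, 24 of the 26 regions were lower in Old and 2 higher. Most of the table was lower as well, with a median change of -0.35 and a 95th percentile of 0.068 over all regions. Nearly all regions carried Y in their code, and the part of that choice in this shift was not tested. The sum over all 26 regions was 833.5 ± 98.0 RPM in Young and 651.2 ± 53.7 in Old (SD, n = 2 each). Both Old libraries lay below both Young libraries at 15 of 26 regions, where 60.2% of all regions did. limma called 2 of 26 as lower, where 9.50% of all regions were called lower, and 7 of 26 at an unadjusted p under 0.05 lower, where 31.9% were. The called regions were Hdac7 region 2 and Hdac7 region 3. The difference between these shares and those of the table was not tested.

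The question of acetate was addressed by comparing OldAcetate with Old, a comparison that shares its Old libraries with the previous one. The scaled values again gave 0 of 26 regions by limma, against 0% of all regions, with 0 of 26 at an unadjusted p under 0.05 against 6.24%, and 0 by edgeR. The scaled fold changes ran from -0.49 to 0.52, and the promoter median was -0.028 beside 0.0018 over all regions. With the values as given, the sum over all 26 regions was 755.0 ± 10.1 RPM (SD, n = 2) in OldAcetate. The median change over all regions of the table was 0.24 as given. Both OldAcetate libraries lay above both Old libraries at 13 of 26 regions, against 47.1% of all regions. limma called 0 of 26 as higher, against 0.311%, and 4 at an unadjusted p under 0.05, against 17.7%. These 4 were Hdac7 region 2, Hdac7 region 3, Hdac4 region 2 and Hdac4 region 5.

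OldAcetate was also compared with Young. limma called 0 of 26 regions on the scaled values, against 0% of all regions, and 0 of 26 on the values as given, also against 0%, and edgeR called 0. At an unadjusted p under 0.05 it gave 1 of 26 scaled, against 5.08%, and 1 of 26 as given, against 6.10%, in both cases Hdac3 region 1. As given, both OldAcetate libraries lay below both Young libraries at 7 of 26 regions, against 29.8% of all regions. The promoter median was -0.031 scaled and -0.14 as given, beside 0.0015 and -0.11 over all regions.

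**Figure D4:**
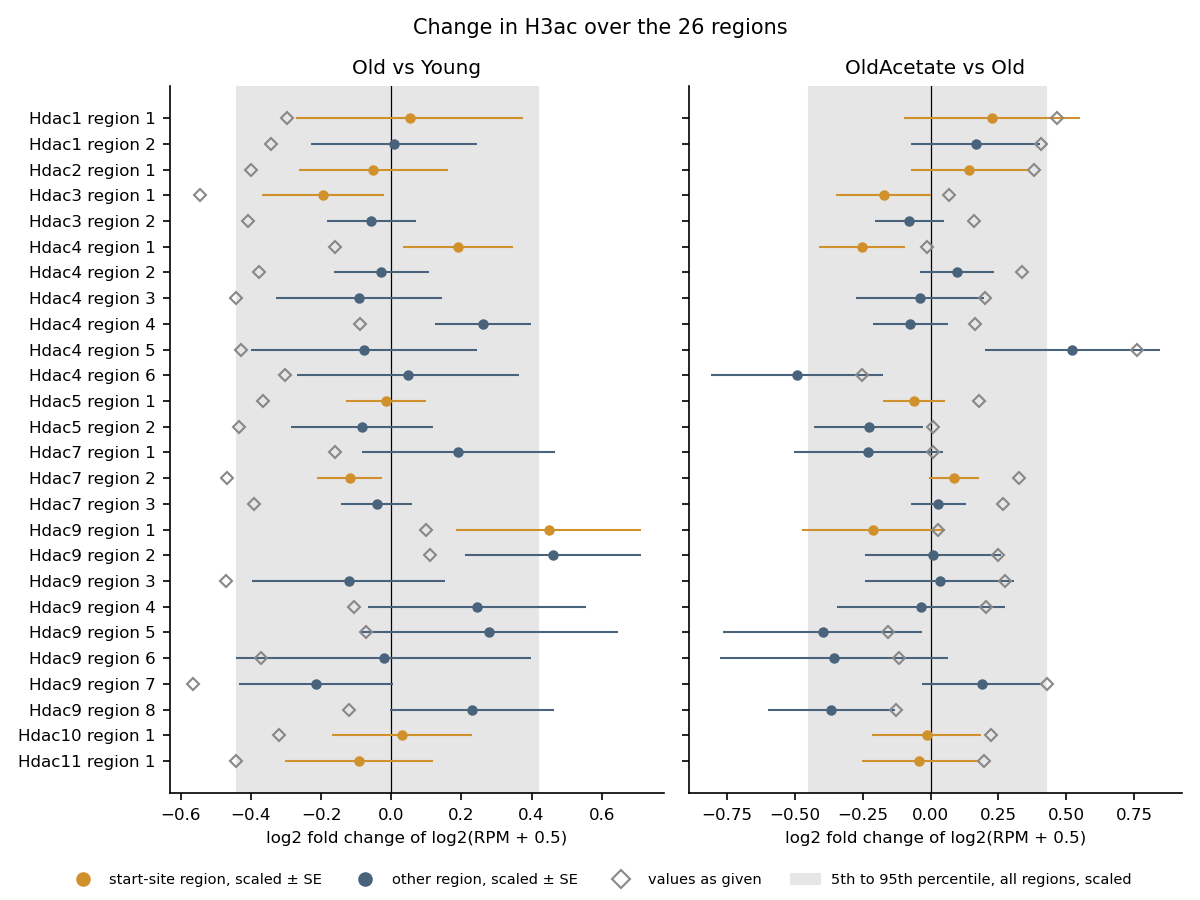
Log2 fold change of log2(RPM + 0.5) (x axis) at each of the 26 regions (y axis) in Old vs Young (left) and OldAcetate vs Old (right). Filled points are scaled values with their SE (orange, regions over a start; blue, other regions), open diamonds are values as given, and the grey band holds the 5th to 95th percentile of all regions after scaling; the diamonds lie left of the points in Old vs Young and right of them in OldAcetate vs Old, the shift that scaling removed.

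Among the class I genes, Hdac1 encodes a catalytic subunit shared by NuRD, Sin3 and CoREST. Its promoter region held 7.90 and 9.39 RPM in Young, 6.01 and 7.95 RPM in Old, then 14.1 and 6.67 RPM in OldAcetate. The OldAcetate libraries differed by more than any of the other groups, with replicate 1 above and replicate 2 within the range of the remaining libraries. The scaled log2 fold change of OldAcetate vs Old was 0.23 (SE 0.32, 95% interval -0.42 to 0.87), and it was -0.27 without OldAcetate replicate 1. Hdac1 region 2, over the start of Marcksl1, held 17.4 and 13.9 RPM in Young, 12.0 and 12.3 RPM in Old, then 14.1 and 18.8 RPM in OldAcetate, and its scaled changes were 0.0080 (SE 0.24) with age and 0.17 (SE 0.24) with acetate.

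Hdac2, the close paralogue of Hdac1 in the same complexes, held 20.7 and 19.6 RPM in Young, 14.8 and 15.5 RPM in Old, then 22.5 and 17.5 RPM in OldAcetate. Both Old libraries were below the other 4 as given. After scaling, the difference of Old vs Young was -0.051 (SE 0.21, 95% interval -0.48 to 0.38) and that of OldAcetate vs Old was 0.14 (SE 0.21, 95% interval -0.29 to 0.57). Relative to the table neither change passed the test, and the intervals allow a change of either sign.

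Hdac3, the catalytic subunit of the NCoR complex, gave the lowest p of the 6 promoter regions in all 3 comparisons after scaling. Its region 1 held 35.2 and 39.6 RPM in Young, 25.4 and 25.5 RPM in Old, then 26.2 and 27.1 RPM in OldAcetate. Both Young libraries were above the other 4, and OldAcetate lay close to Old. As given, the Old vs Young change was -0.55 (SE 0.19) with a limma adjusted p of 0.0527, and scaled it was -0.19 (SE 0.17, adjusted p 0.940). OldAcetate vs Young was -0.37 scaled (SE 0.17) with an unadjusted limma p of 0.0397 and an adjusted p of 0.964. Without Young replicate 1 the scaled changes were -0.36 for Old vs Young and -0.53 for OldAcetate vs Young, and without Young replicate 2 they were -0.029 and -0.20. This region also holds the start of Rell2. Hdac3 region 2, which lies for 3.37% of its length in Hdac3, held 75.7 and 59.6 RPM in Young, 52.2 and 48.9 RPM in Old, then 59.5 and 53.8 RPM in OldAcetate, with scaled changes of -0.057 (SE 0.13) and -0.078 (SE 0.13).

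Of the class IIa genes, Hdac4 had 6 regions. As given, all 6 had lower fitted values in Old than in Young, with changes of -0.44 to -0.09, and 0 passed the adjusted limma test. Scaled, the changes ran from -0.09 to 0.26, and each interval spanned 0. Region 1, over the internal start, held 38.8 and 38.4 RPM in Young, 38.4 and 31.0 RPM in Old, then 33.3 and 35.0 RPM in OldAcetate. As given the Old libraries spanned most of that range, and scaled it changed by 0.19 (SE 0.16) for Old vs Young and -0.25 (SE 0.16, 95% interval -0.57 to 0.06) for OldAcetate vs Old. Region 4, an intronic region with the lowest p of the gene in Old vs Young, held 57.6 and 42.5 RPM in Young, 50.8 and 42.6 RPM in Old, then 51.4 and 53.0 RPM in OldAcetate. Its scaled change with age was 0.26 (SE 0.14, adjusted p 0.894), the lowest p of all 26 regions in this comparison.

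Hdac4 region 5, an intronic region without the letter O in its code, held 10.2 and 6.13 RPM in Young, 6.93 and 4.77 RPM in Old, then 9.41 and 10.8 RPM in OldAcetate. It gave the largest positive scaled difference of OldAcetate from Old, 0.52 (SE 0.32, 95% interval -0.12 to 1.17), with a limma adjusted p of 0.864. Region 6, without AC in its code, held 10.2 and 8.99 RPM in Young, 7.40 and 7.95 RPM in Old, then 6.05 and 6.67 RPM in OldAcetate, and gave the largest negative one, -0.49 (SE 0.32, 95% interval -1.13 to 0.14). Region 6 was chosen after its values were seen. Both are among the lowest of the set, with a mean of 21.2 and 20.5 reads per library, and the codes come from the same libraries as the values.

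Hdac5, which represses MEF2 target genes in muscle until kinases drive it from the nucleus, held 91.1 and 71.5 RPM in Young over its promoter region, 64.7 and 60.5 RPM in Old, then 71.9 and 69.7 RPM in OldAcetate. The Young libraries differed by more than the Old and OldAcetate groups did. The scaled changes were close to 0, at -0.015 (SE 0.11) with age and -0.062 (SE 0.11, 95% interval -0.29 to 0.17) with acetate. Hdac5 region 2, over the starts of G6pc3 and Lsm12, held 28.6 and 23.3 RPM in Young, 22.7 and 15.9 RPM in Old, then 19.5 and 18.8 RPM in OldAcetate, with scaled changes of -0.083 (SE 0.20) and -0.23 (SE 0.20).

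Hdac7, known for its roles in endothelium and thymocytes, held the regions with most reads and so the smallest errors. Region 2, over the internal starts, held 135 and 126 RPM in Young, 96.6 and 91.9 RPM in Old, then 123 and 114 RPM in OldAcetate. As given, the 3 groups did not overlap, with Old lowest, OldAcetate between and Young highest. Library medians over all regions had the same order. On the log2 scale they were 4.24 and 4.07 in Young, 3.89 and 3.77 in Old, then 4.06 and 4.03 in OldAcetate. After scaling, both Old libraries stayed below the other groups, while OldAcetate and Young overlapped. As given, Old was at 72.2% of Young, a log2 fold change of -0.47 (SE 0.13) that passed the limma test with an adjusted p of 0.0182. Scaled, it was -0.12 (SE 0.09, 95% interval -0.30 to 0.07, adjusted p 0.928). OldAcetate vs Old was 0.33 as given (SE 0.13, adjusted p 0.168) and 0.09 scaled (SE 0.09). Per kb this region, at 3.75 RPM per kb, stood at percentile 90.0 of all regions and 96.3 of the regions away from gene starts.

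Hdac7 region 3, chosen after its values were seen, held 122 and 97.2 RPM in Young, 91.1 and 75.6 RPM in Old, then 101 and 98.4 RPM in OldAcetate. As given its Old vs Young change was -0.39 (SE 0.13, limma adjusted p 0.0482), and scaled it was -0.041 (SE 0.10). Both calls at Hdac7 held as given without Young replicate 2 and without Old replicate 1. They were lost without Young replicate 1, Old replicate 2, OldAcetate replicate 1 or OldAcetate replicate 2. The number of regions called lower over the whole table also changed with the library left out, and it fell most without Young replicate 1. This dependence is therefore not particular to Hdac7. Over these 6 omissions the as-given change ran from -0.52 to -0.42 at region 2 and from -0.55 to -0.23 at region 3, where the smallest came without Young replicate 1. Region 1, upstream of the gene and overlapping Vdr, had the lowest level of the set, 1.72 RPM per kb, with 14.8 and 9.39 RPM in Young, 13.9 and 7.95 RPM in Old, then 10.8 and 10.4 RPM in OldAcetate.

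Hdac9, whose products include forms that lack the deacetylase domain, was the gene whose start region had no lower mean in Old than in Young, at 12.0 ± 3.99 and 10.9 ± 0.92 RPM (SD, n = 2 each). Region 1 held 11.5 and 10.2 RPM in Young, 14.8 and 9.15 RPM in Old, then 12.1 and 11.7 RPM in OldAcetate. The Old libraries lay on both sides of all the others. The scaled change of Old vs Young was 0.45 (SE 0.26, 95% interval -0.08 to 0.98, limma adjusted p 0.903), and it became 0.18 when Old replicate 1 was left out and 0.72 when Old replicate 2 was. Region 2, in an intron, held 15.1 and 8.99 RPM in Young, 13.9 and 11.5 RPM in Old, then 16.1 and 14.2 RPM in OldAcetate, with a scaled change of 0.46 (SE 0.25, adjusted p 0.894) in Old vs Young.

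The other Hdac9 regions were small, and their spread was wide. Region 8, beyond the 3′ end of the gene, had the lowest p of the gene in OldAcetate vs Old. It held 15.1 and 18.0 RPM in Young, 14.8 and 15.5 RPM in Old, then 14.8 and 12.9 RPM in OldAcetate, a scaled change of -0.37 (SE 0.23, adjusted p 0.869). Regions 3 to 7 had mean levels of 2.38 to 3.05 RPM per kb, and their scaled changes in Old vs Young ran from -0.22 to 0.28. After scaling, both Old libraries lay above both Young libraries at regions 1 and 4 of Hdac4 and regions 1 and 2 of Hdac9. These genes hold 6 and 8 of the 26 regions, and the count of 4 of 26 compares with 16.9% of all regions. Hdac7 region 2 was the only region where both lay below, and 17.1% of all regions did so. In OldAcetate vs Old, 2 of 26 scaled regions lay wholly above and 8 wholly below, against 16.7% and 17.2% of all regions.

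**Figure D5:**
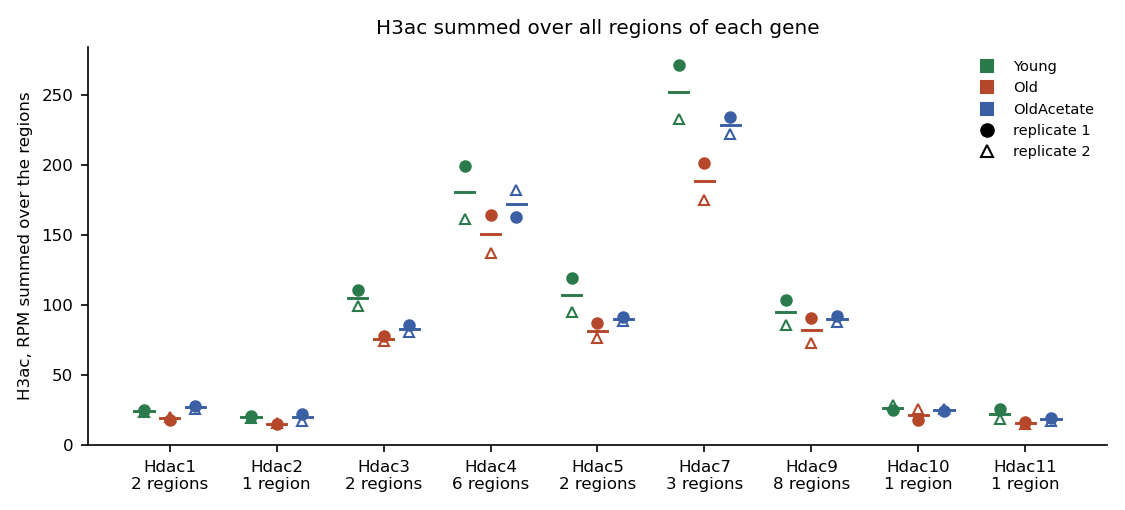
H3ac in RPM (y axis) summed over all regions of each gene (x axis), with a point for each library and a line at each group mean. The number of regions differs between genes, so heights are to be compared within a gene; the Old mean is the lowest of the 3 groups at all 9 genes, as given and without scaling. The sums of Hdac1, Hdac3, Hdac5 and Hdac7 include regions that lie mainly over neighbouring genes.

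Hdac10 is a class IIb enzyme that acts on acetylated polyamines. Its region held 25.0 and 28.6 RPM in Young, 17.6 and 25.9 RPM in Old, then 24.5 and 25.4 RPM in OldAcetate. Old replicate 1 was the lowest of the 6 and Old replicate 2 within the range of the others. The scaled change of Old vs Young was 0.030 (SE 0.20, 95% interval -0.37 to 0.43), and it became -0.30 when Old replicate 2 was left out and 0.36 when Old replicate 1 was. Hdac11, the class IV enzyme and a remover of longer fatty acyl groups, held 25.7 and 18.4 RPM in Young, 16.6 and 15.1 RPM in Old, then 19.5 and 17.1 RPM in OldAcetate. Its scaled changes were -0.092 (SE 0.21) with age and -0.041 (SE 0.21) with acetate.

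Summed over its regions, the Hdac7 signal was 252 ± 27.5 RPM for Young, 188 ± 18.5 RPM for Old and 229 ± 8.59 RPM for OldAcetate (± SD, with n = 2 in each group). Region 3, with 337 of its 31000 bp in Hdac7, gave a mean of 109.6, 83.3 and 100.0 RPM of these sums. The sums of Hdac1, Hdac3 and Hdac5 also include a region over the start of a neighbouring gene. Hdac4 held 181 ± 26.8, 151 ± 19.1 and 173 ± 13.6, and Hdac9 94.9 ± 12.9, 81.9 ± 12.9 and 90.2 ± 3.11. At Hdac4, Hdac9 and Hdac10 the sums of the Young and Old libraries overlapped. At Hdac7 they did not, and nor did they at Hdac1, Hdac2, Hdac3, Hdac5 and Hdac11. Among single regions, both Old libraries lay below both Young libraries at 60.2% of the whole table as given.

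Genes of the complexes and partners through which these enzymes act were read from their promoter regions, 60 in all. After scaling, limma called 0 of the 60 in each of the 3 comparisons. At an unadjusted p under 0.05, 1 of the 60 was higher and 1 lower in Old vs Young, beside 2.88% and 2.66% of all regions. In OldAcetate vs Old 6 were higher and 0 lower, beside 3.15% and 3.09%, and in OldAcetate vs Young 5 were higher and 1 lower, beside 2.45% and 2.63%. The partners of class I were the NuRD list (11 regions), the Sin3 list (13), the CoREST and MiDAC list (9) and the NCoR list (7), and those of class IIa were MEF2 factors, kinases and binding proteins (20).

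The scaled medians of these lists in Old vs Young were -0.10 for NuRD, -0.019 for Sin3, 0.010 for CoREST and MiDAC, -0.058 for NCoR and 0.0035 for the class IIa partners. In OldAcetate vs Old they were 0.13, 0.015, 0.24, 0.048 and 0.091, beside 0.0018 over all regions. The lowest p in Old vs Young fell, in the NuRD, Sin3, CoREST and MiDAC, and class IIa lists, at Chd4, the NuRD remodeller, with -0.22 (SE 0.13), at Sap30 of Sin3 with 0.32 (SE 0.18), at Elmsan1, the MiDAC scaffold, with -0.30 (SE 0.14), and at Ywhaz, which binds phosphorylated class IIa proteins, with 0.35 (SE 0.13). None of these passed the adjusted threshold, and the limma adjusted p ranged from 0.852 to 0.901.

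With the values as given, limma called 8 of the 60 as lower in Old and 0 as higher, beside the 9.50% of all regions called lower. Of the 8, 6 are named here. In NuRD they were Chd4, at -0.58 (SE 0.16), and Mbd3, at -0.61 (SE 0.18). In Sin3 they were Brms1, Brms1l and Arid4b, with changes of -0.44, -0.66 and -0.58. Elmsan1 of the CoREST and MiDAC list changed by -0.65 (SE 0.16). Of the 20 class IIa partners 0 were called, with the lowest p at the kinase gene Sik2, at -0.64 (SE 0.24, adjusted p 0.0613). In OldAcetate vs Old 2 of the 60 were called higher, beside 0.311% of all regions, Mbd3 at 0.72 (SE 0.18) and Elmsan1 at 0.65 (SE 0.16), and 0 of 60 were called in OldAcetate vs Young.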

How the data were processed

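H3ac was profiled by CUT&RUN in 6 libraries of 3 groups. The authors deposited 1 table with an RPM value for every library in each region, also where the code of the region lacks a group. Although it is named as RPKM, region length did not enter the values. In each library 100% of them were whole multiples of the value of 1 read (tolerance 0.01), so reads and library totals were recovered from them. What reads the totals include is not stated. Bowtie2, Picard and mm10 stand in the submitters' processing notes. Versions, settings, the peak caller, and whether the yeast DNA added during the protocol was used for scaling are not given in the sources used here. Region bounds were multiples of 500 bp, which limits how finely starts can be placed. Counting errors cover reads only. 0 columns were unmatched.

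Values were tested with limma 3.58.1 (R 4.3.3) on log2(RPM + 0.5), a scale that understates changes of low regions, in 1 fit of group means over all regions with eBayes trend and robust and a Benjamini-Hochberg threshold of 0.05. Scaled values had the median deviation of each library from the region means subtracted. As the columns held RPM, edgeR 4.0.16 (quasi-likelihood, on recovered reads) was an alternative. Other alternatives were pseudocounts of 0.1 and 1, quantile normalization, no scaling, removal of the lowest 25% of regions, the replicate number as a block, fits of 2 groups, gene extensions of 0 and 10 kb and omission of each library. Internal start regions were added after seeing the data. Simulated Old vs Young data carried 200 changed regions among 24431. limma found 21% at 1.5-fold, 69.5% at 2-fold and 89% at 3-fold, with 3, 10 and 7 false calls. Over regions drawn from the whole table, most 1.5-fold changes of a single region were thus missed, and smaller changes were not simulated. The share found was not computed apart for regions with many reads, such as Hdac7 regions 2 and 3.

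The members, the partner lists and the marker lists were chosen with earlier results of these data known. Named regions were, per gene, the promoter region, the densest other region and those of lowest p in the first 2 comparisons. Other regions are named as chosen after their values were seen. Of each partner list, called genes were named, or otherwise the gene of lowest p for Old vs Young; some of these genes and markers are not reported here. Tables and figures used Python 3.11.15 and matplotlib 3.10.9.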

Additional observations from a re-analysis of the deposited data

How the results depend on the processing

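The count of 0 called regions held in all 3 comparisons under other pseudocounts, quantile normalization, removal of low regions, fits of 2 groups, other gene extensions, the edgeR test with RLE factors and omission of each library. Of 453 alternative values, 33 reversed, 14 moved and 1 became a call. In Old vs Young the count was 2 with values as given and 2 with edgeR without factors, and Hdac7 region 2, at -0.47 as given, became a call. Values as given also moved the promoter medians to -0.38 with age and 0.21 with acetate, and those of the other regions to -0.36, 0.18 and, for OldAcetate vs Young, -0.15. They reversed Hdac1 (-0.30), the Hdac4 internal start (-0.16) and Hdac10 (-0.32) with age. For OldAcetate vs Old they reversed Hdac3 (0.066), Hdac5 (0.18), the Hdac9 internal start (0.028), Hdac10 (0.22) and Hdac11 (0.20), and in OldAcetate vs Young Hdac2 (-0.021) and Hdac10 (-0.096). By construction, that setting keeps the shift shared by all regions, with medians of -0.35, 0.24 and -0.11 over the table in the 3 comparisons.

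Omitting a library reversed the sign of some start regions, all with a change smaller than its SE. Both medians also changed sign, but they were not counted among the reversed values above. In Old vs Young the ranges were -0.20 to 0.30 for Hdac1, -0.14 to 0.043 for Hdac2, -0.11 to 0.078 for Hdac5, -0.30 to 0.36 for Hdac10, -0.25 to 0.062 for Hdac11, -0.17 to 0.020 for the promoter median and -0.080 to 0.096 for the median of other regions. In OldAcetate vs Old they were -0.27 to 0.73 for Hdac1, -0.022 to 0.31 for Hdac2, -0.48 to 0.061 for Hdac9, -0.35 to 0.32 for Hdac10, -0.12 to 0.038 for Hdac11 and -0.096 to 0.095 and -0.14 to 0.044 for these medians. In OldAcetate vs Young they were -0.22 to 0.78 for Hdac1, -0.073 to 0.26 for Hdac2, -0.14 to 0.011 for Hdac4, -0.17 to 0.017 for Hdac5, -0.071 to 0.011 for Hdac7, -0.16 to 0.19 for Hdac10, -0.29 to 0.021 for Hdac11 and -0.15 to 0.019 and -0.045 to 0.065 for these medians. Where a single library of a group was left, it was assumed to vary like the other groups.

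Replicate numbers did not pair the libraries, since deviations of same-numbered libraries correlated by 0.01, -0.03 and -0.04. With the replicate number as a block 0 of the 26 regions were called in each comparison, and the promoter median in Old vs Young stayed at -0.033. With 12.8 to 299.5 reads per region, depth limits the small Hdac9 and Hdac4 regions most.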
